A study of Mus musculus with 6 samples.

Results

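The proteasome genes of the mouse were examined in the epididymal fat pad, white adipose tissue of the abdomen, of 3 patDp/+ mice and 3 wild type mice. Members were taken by name. Every gene whose name on the array starts with Psma to Psmg followed by a digit was included, apart from the immunoproteasome genes Psmb8, Psmb9 and Psmb10, which are described separately. That gave 46 of the 29182 names on the array. Of these, 45 were tested among 19203 genes in all, each by the brightest of its probes that the scanner software called well above background on 3 or more of the 6 arrays. Psmb11, the thymus-specific catalytic beta5t subunit, was not tested, because its probes were well above background on 1 array and on 0 arrays. Psmc3ip matches the name rule but encodes a factor of meiotic recombination and no proteasome subunit. It is counted with the 45 and left out of every structural class.

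In patDp/+ mice the chromosome 7 inherited from the father carries a duplication of the segment that corresponds to the human region of 15q11-13 duplication syndrome. Wild type mice carry no duplication. All 6 animals were young adult males of the C57BL/6 background, 9 to 10 weeks old. The duplication is inherited and present in every cell type, so its effects in fat cells and elsewhere are not separated. Each animal had 1 array, labelled with Cy3. Values are log2 processed intensity minus the 75th percentile of the same array, so 0 is the level of that percentile. Differences are patDp/+ minus wild type, and errors of a difference are limma's standard errors (SE). Probes differ in how strongly they bind, so levels are compared between animals only, never between genes.

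The proteasome is the chamber in which cells take apart proteins marked with ubiquitin. Its 20S core is a stack of alpha and beta rings whose beta5, beta1 and beta2 subunits (Psmb5, Psmb6 and Psmb7) cut the protein chain, and its 19S cap has a base, which recognises and unfolds the substrate, and a lid, which removes the ubiquitin. Activators can replace the cap, and dedicated chaperones assemble the particle. In fat, NFE2L1 (also called NRF1) controls proteasome genes and is needed for the proteasome activity of brown adipocytes. UBE3A, a ubiquitin ligase encoded in the duplicated stretch, marks proteins for the proteasome and binds the cap's ubiquitin receptor PSMD4. Neurons silence the paternal Ube3a allele, whereas most other cells use both alleles. The comparison therefore asks whether fat with an extra dose of Ube3a differs in the transcripts of the proteasome.

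The probe sequences of the catalytic subunits are shown first, because all readings of these genes rest on them, together with that of Psmb8, which encodes the interferon-induced replacement of beta5. They are as the scanner files give them, 60 bases each, with coordinates on mm9. The probe of Psmb5 lies at chr14:55233161-55233220 and that of Psmb6 at chr11:70341014-70341073, each as 1 block. The 60 bases of the Psmb7 probe are spread over 20420 bases at chr2:38468966-38489385 and those of the Psmb8 probe over 325 bases at chr17:34337828-34338152, so both cross gaps in the genome. Whether the blocks lie in coding or untranslated exons was not analysed here.
Psmb5: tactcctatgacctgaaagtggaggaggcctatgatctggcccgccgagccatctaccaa
Psmb6: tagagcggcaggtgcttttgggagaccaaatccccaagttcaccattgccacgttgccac
Psmb7: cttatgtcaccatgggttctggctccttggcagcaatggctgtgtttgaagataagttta
Psmb8: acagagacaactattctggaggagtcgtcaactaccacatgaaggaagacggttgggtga

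The extra dose was visible in the transcripts of the duplicated ligases. Ube3a had 2.95, 3.02 and 3.03 in patDp/+ fat, against 2.54, 2.48 and 2.51 in wild type fat, a difference of 0.49 ± 0.069 (limma SE, unadjusted p = 0.000372, adjusted p = 0.408). Herc2, which encodes another large ubiquitin ligase and lies at one end of the stretch, had -0.23, -0.57 and -0.51 in patDp/+ fat, against -1.04, -0.72 and -1.04 in wild type fat (difference 0.50 ± 0.14, limma unadjusted p = 0.0106, adjusted p = 0.851). All patDp/+ values lay above all wild type values for both genes, as the group labels have it. No gene of the 19203 passed the limma threshold of an adjusted p under 0.05 (0%; smallest adjusted p 0.353), so calls below use an unadjusted p under 0.05. At that level 1108 genes were called (5.77%), 456 higher (2.37%) and 652 lower (3.4%). Leaving out 1 animal moved that total between 760 (patDp/+ replicate 2 left out) and 1811 (patDp/+ replicate 3 left out).

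None of the 45 proteasome genes was called in either direction, beside the 5.77% of all genes. The smallest unadjusted p was 0.13, for Psmg1. Differences ran from -0.17 (Psmg1) to 0.14 (Psmg2), with a median of -0.026, and the median of all genes tested was -0.021. All 45 genes were well above background on all 6 arrays and none was saturated. Psma8 was still dim, with a mean log2 level of -3.65. Its difference of -0.05 became 0.50 with normexp background correction in place of the scanner's own. The median SD between animals of a group was 0.091 for proteasome genes and 0.15 for all genes. Neither this nor the next comparison was matched for level. Of the 19203 genes, 17523 had a probe well above background on all 6 arrays. For 44 of the 45, the 95% interval of the difference stayed within 1.5-fold either way, which held for 74% of all genes. The exception was Psme3, whose interval ran from 0.659-fold to 1.40-fold. The upper bound of each of the 45 intervals was below the difference of 0.49 measured for Ube3a. The same held for 15224 of the 19203 genes. Psme3 came closest, with an upper bound of 0.483 against 0.486 for Ube3a. The 95% interval of the Ube3a difference itself ran from 0.32 to 0.65.

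**Figure D1:**
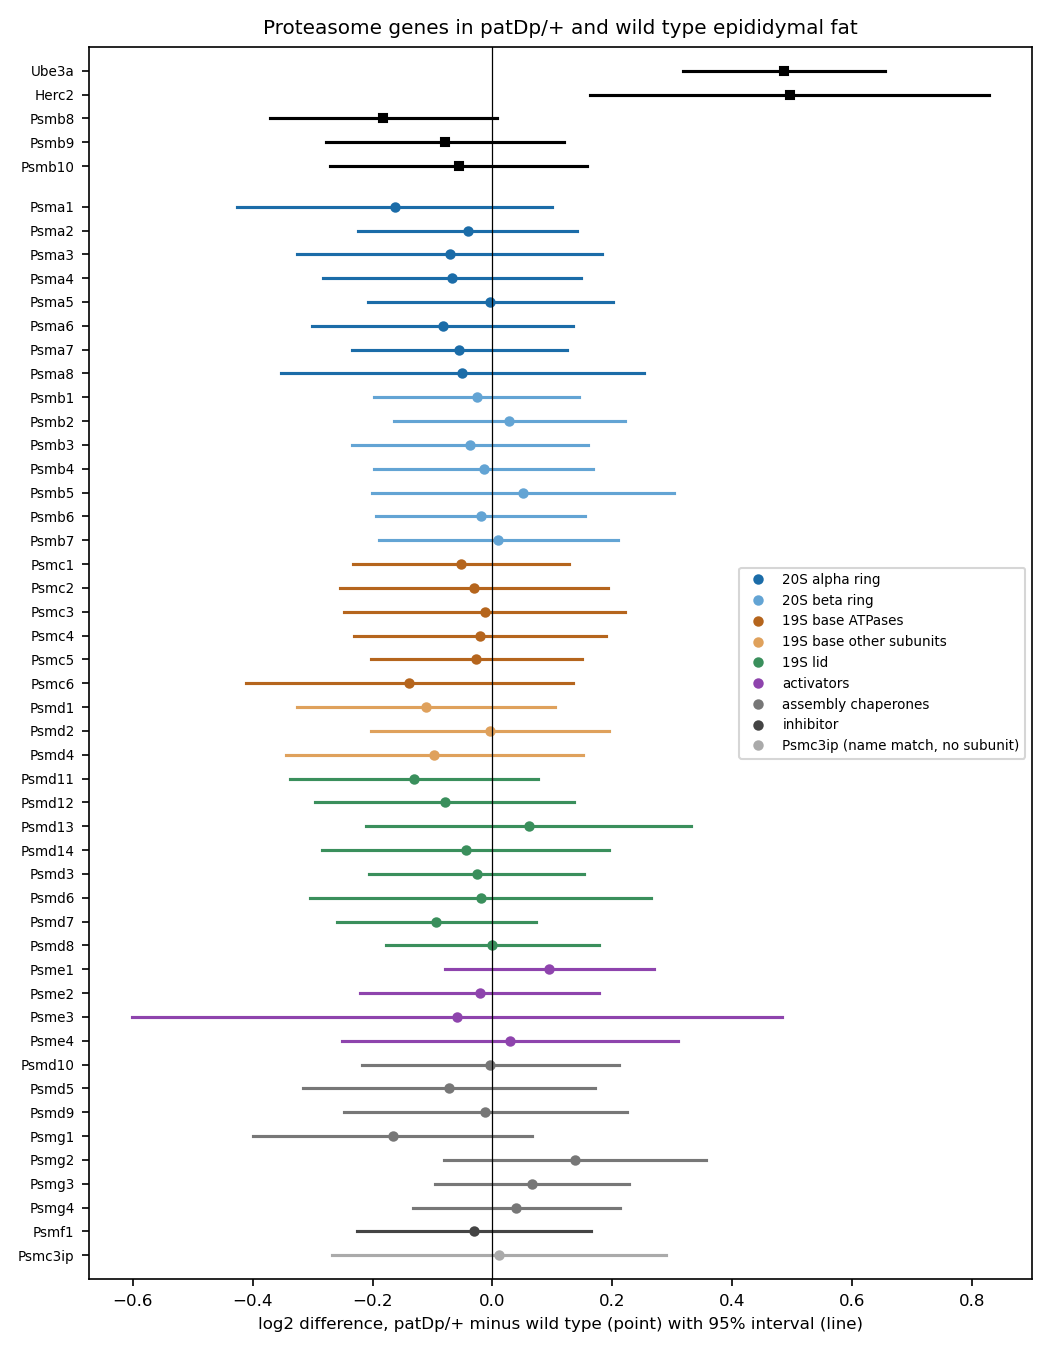
Log2 difference, patDp/+ minus wild type, of each proteasome gene tested, by structural class (points), with its 95% interval (lines), below the duplicated ligases and the immunoproteasome genes (squares). The intervals of Ube3a and Herc2 lie above 0, whereas all 45 proteasome intervals include 0.

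In 35 of the 45 genes the difference was below 0, a direction shared by 56.5% of all genes, and in 10 it was above 0 (43.5% of all genes). The count includes Psmd8, whose difference was -0.000068. The count of 35 depended on single animals, and it became 21 when patDp/+ replicate 2 was left out and 19 when wild type replicate 2 was. Groups did not overlap for 2 genes that were higher in patDp/+ fat, Psme1 and Psmg3 (4.39% of all genes), and for 1 that was lower, Psmd7 (6.84% of all genes). Counts this small are near those shares.

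The outer, alpha rings of the 20S core, which gate the entry to the chamber, had 8 genes tested, all with a difference below 0 and none called (median -0.061). Without wild type replicate 2, 5 of the 8 were below 0, and 7 were with quantile normalization, median scaling or the deposited table. Psma1 had 4.70, 4.47 and 4.73 in patDp/+ fat, against 4.70, 4.94 and 4.75 in wild type fat (difference -0.16 ± 0.11, limma unadjusted p = 0.18). Psma6 had 4.01, 3.86 and 4.06 in patDp/+ fat, against 3.996, 4.16 and 4.02 in wild type fat (-0.083 ± 0.09). Psma4 had 2.90, 2.74 and 2.67 in patDp/+ fat, against 2.87, 2.77 and 2.87 in wild type fat (-0.067 ± 0.088). The groups overlapped for all 3, and for Psma1 and Psma6 the low animal was patDp/+ replicate 2 and the high one wild type replicate 2. The other alpha genes lay between -0.072 (Psma3) and -0.0036 (Psma5). Psma8, the alpha subunit of the testis form of the proteasome, had -3.84, -3.46 and -3.73 in patDp/+ fat, against -3.71, -3.49 and -3.69 in wild type fat. Its difference was -0.05, but 0.50 with normexp background correction, so not all 8 alpha genes were below 0 under that setting.

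The inner, beta rings carry the catalytic sites, and their 7 tested genes had differences from -0.038 (Psmb3) to 0.051 (Psmb5), with a median of -0.015. Psmb5, the beta5 subunit with chymotrypsin-like activity, had 3.90, 3.74 and 4.07 in patDp/+ fat, against 3.83, 3.90 and 3.82 in wild type fat (difference 0.051 ± 0.10). Psmb6, the beta1 subunit with caspase-like activity, had 4.54, 4.41 and 4.51 in patDp/+ fat, against 4.51, 4.50 and 4.52 in wild type fat (-0.02 ± 0.072). Psmb7, the beta2 subunit with trypsin-like activity, had 3.46, 3.33 and 3.50 in patDp/+ fat, against 3.35, 3.43 and 3.47 in wild type fat (0.01 ± 0.082). For each catalytic gene the patDp/+ animals lay on both sides of the wild type values, and replicate 2 was the lowest patDp/+ animal. The 95% intervals of the differences were -0.20 to 0.30 for Psmb5, -0.19 to 0.15 for Psmb6 and -0.19 to 0.21 for Psmb7. Among the structural beta genes, Psmb3 had 5.18, 5.10 and 5.30 in patDp/+ fat, against 5.22, 5.27 and 5.21 in wild type fat, and Psmb1 had 3.88, 3.82 and 3.90 in patDp/+ fat, against 3.87, 3.94 and 3.87 in wild type fat. Both genes overlapped between groups. Psmb2 (0.028) and Psmb4 (-0.015) complete the ring.

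All 9 genes tested of the 19S base had a difference below 0, and none was called (median -0.031). The count was 5 without patDp/+ replicate 2, 4 without wild type replicate 2, and 8 with quantile normalization, median scaling or the deposited table. Psmc6, an ATPase of the unfolding ring, had 4.16, 3.99 and 4.15 in patDp/+ fat, against 4.20, 4.43 and 4.09 in wild type fat (difference -0.14 ± 0.11, limma unadjusted p = 0.261). Psmd1, a large scaffold subunit, had 2.02, 1.87 and 1.86 in patDp/+ fat, against 1.99, 2.14 and 1.96 in wild type fat (-0.11 ± 0.088). Psmd4, the ubiquitin receptor that UBE3A binds, had 3.52, 3.42 and 3.57 in patDp/+ fat, against 3.46, 3.76 and 3.57 in wild type fat (-0.097 ± 0.10). For Psmc6 and Psmd4 the wild type group alone spanned more than the difference between groups, and wild type replicate 2 was its highest animal. The 95% interval of the Psmd4 difference ran from -0.35 to 0.15. The Psmd4 probe covers parts of chr3:94837931-94838529 on mm9 and is printed because its product is the direct partner of the duplicated ligase.
Psmd4: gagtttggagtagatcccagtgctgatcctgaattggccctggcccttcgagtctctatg

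The other ATPases, Psmc1 to Psmc5, had differences from -0.053 (Psmc1) to -0.013 (Psmc3), and Psmd2, another scaffold subunit, had -0.0045. Of the 9 base genes, 9 were below their own 6-array mean on the array of patDp/+ replicate 2 and 0 were below it on the array of wild type replicate 2.

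The 19S lid had 8 genes tested, 7 with a difference below 0 and 1 above, and none called (median -0.035). Leaving out replicate 2 of either group left 4 of the 8 below 0. Psmd11, a lid subunit whose level sets proteasome activity in human embryonic stem cells, had 3.88, 3.79 and 4.03 in patDp/+ fat, against 4.04, 4.05 and 4.003 in wild type fat (difference -0.13 ± 0.085, limma unadjusted p = 0.175). Psmd7, the partner of the deubiquitinase, had 2.63, 2.67 and 2.71 in patDp/+ fat, against 2.78, 2.74 and 2.77 in wild type fat (-0.094 ± 0.068, limma unadjusted p = 0.217). Psmd12, a structural lid subunit, had 4.55, 4.37 and 4.60 in patDp/+ fat, against 4.65, 4.58 and 4.53 in wild type fat (-0.08 ± 0.089). Psmd7 was the one gene of the 45 whose patDp/+ values all lay below the wild type values. Psmd14, the metalloprotease that strips ubiquitin from substrates, had 3.52, 3.40 and 3.55 in patDp/+ fat, against 3.38, 3.66 and 3.55 in wild type fat (-0.045 ± 0.099), and its groups overlapped. Psmd13 was the lid gene above 0 (0.06), and Psmd3, Psmd6 and Psmd8 lay between -0.026 and -0.000068.

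The activators bind the ends of the core in place of the cap. Of 4 genes tested, 2 had a difference above 0 and 2 below, with none called (median 0.0037). Psme1 and Psme2, the interferon-induced PA28 alpha and beta chains of one ring, did not move together. Psme1 had 4.43, 4.40 and 4.38 in patDp/+ fat, against 4.37, 4.25 and 4.30 in wild type fat (0.095 ± 0.072, limma unadjusted p = 0.233), and Psme2 had 5.85, 5.68 and 5.83 in patDp/+ fat, against 5.82, 5.86 and 5.75 in wild type fat (-0.021 ± 0.082). The groups did not overlap for Psme1 and overlapped for Psme2, and the difference between the genes was not tested. Psme3, the nuclear PA28 gamma, had 1.04, 1.13 and 1.58 in patDp/+ fat, against 0.97, 1.68 and 1.28 in wild type fat (-0.059 ± 0.22). It spread more between animals than any other proteasome gene, with an SD of 0.32. Psme4, which encodes PA200, had 3.78, 3.60 and 3.95 in patDp/+ fat, against 3.64, 3.86 and 3.74 in wild type fat (0.029 ± 0.12).

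The assembly chaperones, which help to build the core and the base and are not part of the finished particle, held both ends of the range. Psmg1 had 1.43, 1.39 and 1.66 in patDp/+ fat, against 1.64, 1.72 and 1.62 in wild type fat (-0.17 ± 0.096, limma unadjusted p = 0.13, adjusted p = 0.889). Its partner in the chaperone pair of the alpha ring, Psmg2, had 1.21, 1.29 and 1.45 in patDp/+ fat, against 1.16, 1.15 and 1.24 in wild type fat (0.14 ± 0.09, limma unadjusted p = 0.177). Both overlapped between groups, Psmg1 through patDp/+ replicate 3 and Psmg2 through patDp/+ replicate 1. Without patDp/+ replicate 3, Psmg1 was called lower (-0.25, limma unadjusted p = 0.028). Psmg3, a chaperone of the other alpha-ring pair, had 1.24, 1.19 and 1.19 in patDp/+ fat, against 1.16, 1.14 and 1.12 in wild type fat (0.066 ± 0.067), with no overlap and the smallest spread of the 45 genes (SD 0.025). Its partner Psmg4 had a difference of 0.039, and the base chaperones Psmd5, Psmd9 and Psmd10 had -0.073, -0.012 and -0.0038. Psmf1, the proteasome inhibitor PI31, had 0.033, 0.028 and 0.033 in patDp/+ fat, against -0.031, 0.17 and 0.048 in wild type fat (-0.031 ± 0.08). The name match Psmc3ip had a difference of 0.011.

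Set side by side, the median difference was -0.038 in the 20S core (15 genes), -0.031 in the 19S base (9 genes), -0.035 in the 19S lid (8 genes) and 0.0037 in the activators (4 genes), against -0.021 in all genes. These are descriptions of classes whose members vary together between arrays, and no test was made of them. Without wild type replicate 2 they were -0.017, 0.0018, 0.0085 and 0.074, and without patDp/+ replicate 2 they were -0.0034, -0.0039, 0.003 and 0.064. The activators had -0.05 without patDp/+ replicate 3, -0.02 without wild type replicate 1 and -0.012 without wild type replicate 3. With normexp background correction in place of the scanner's own, the median of the 45 genes was -0.13 while that of all genes was 0.074, and 2 genes were called lower, Psmd11 (-0.26, limma unadjusted p = 0.0277) and Psmg1 (-0.23, limma unadjusted p = 0.042). Psme1 had -0.026 under that setting.

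The proteasome genes varied together between single arrays, each of 1 animal. On the array of patDp/+ replicate 2, 39 of the 45 were below their own mean over 6 arrays, with a median deviation of -0.097 (all genes -0.028, 58.2% below). On the array of wild type replicate 2, 8 of the 45 were below their mean, with a median deviation of 0.072 (all genes 0.01, 47.2% below). On the other 4 arrays the median deviation of the 45 lay between -0.033 and 0.019. Replicate 2 of both groups shared a slide, as did replicates 1 and replicates 3, so each slide gave 1 difference. The median over the 45 genes was 0.054 on slide 1, -0.17 on slide 2 and 0.032 on slide 3, and the difference was below 0 for 9, 40 and 16 genes. The medians of all genes on the same slides were 0.0063, -0.036 and -0.025, and 48.8%, 56% and 56.2% of all genes were below 0. Psma1 and Psmd7 were lower on all 3 slides, and Psme1, Psmg2, Psmg3 and Psmg4 were higher on all 3, beside 16.5% of all genes lower and 9.64% higher on every slide. The pattern was not confined to the genes that match the name rule. Of 11 tested proteasome partners with other names, 10 were below their mean on the array of patDp/+ replicate 2 and 1 on that of wild type replicate 2, and 11 were lower on slide 2 (median -0.20). Of 15 interferon-induced genes, 13 were below their mean on the array of patDp/+ replicate 2 and 2 on that of wild type replicate 2, and 12 were lower on slide 2 (median -0.25). Whether these lists differ in the pattern was not tested. Position on the slide differed as well. Replicates 1 and 3 of patDp/+ and replicate 2 of wild type lay at position 4, where the median deviations of the 45 were 0.0098, 0.019 and 0.072. Replicate 2 of patDp/+ and replicates 1 and 3 of wild type lay at position 3, with -0.097, -0.033 and -0.0062. A slide holds 1 animal of each group, so within a slide an animal, its array and its position cannot be told apart.

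**Figure D2:**
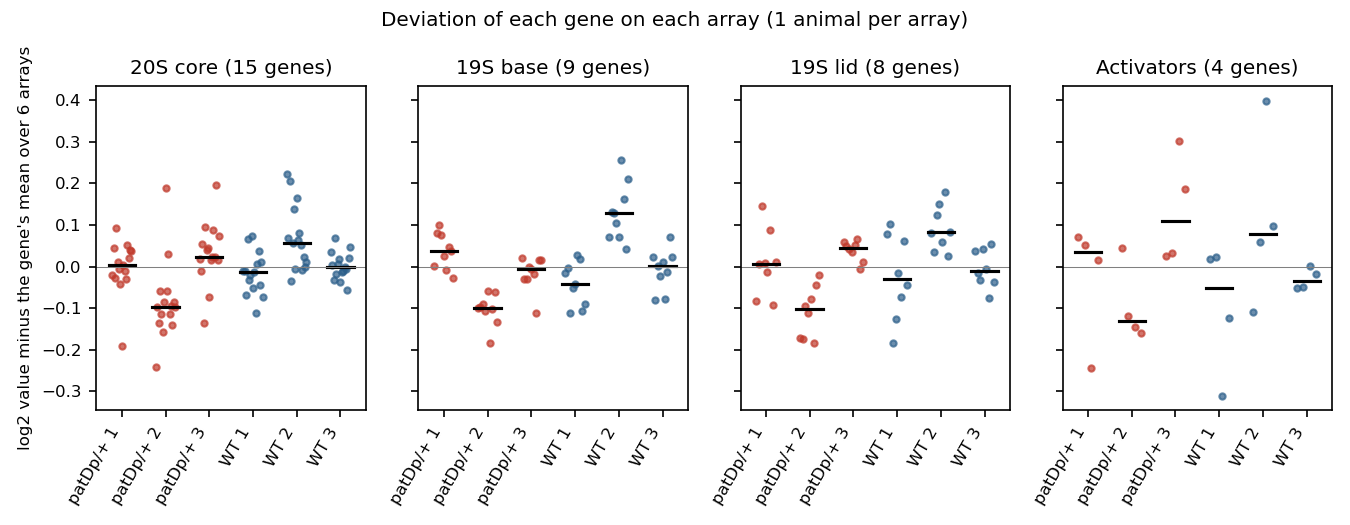
Deviation of each gene's log2 value from its mean over 6 arrays, by animal, for the 20S core, the 19S base, the 19S lid and the activators, with black lines at the medians. In the core, base and lid, the points of patDp/+ replicate 2 lie mostly below 0 and those of wild type replicate 2 mostly above it.

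Markers of the cell types of the depot were read in the same animals. In a piece of tissue, fewer cells of a type and less RNA per cell cannot be told apart. The 7 adipocyte markers, from Adipoq to Lep, were all tested, 5 with a difference below 0 and 2 above, and none called (median -0.088). Lep, the hormone leptin, had the highest, 0.43 ± 0.19 (limma unadjusted p = 0.0648). Summed linear levels are weighted towards the brightest probes, here those of Fabp4, Cidec and Adipoq. The summed linear level of the list, in units of the array's 75th percentile, was 1453 to 1599 in patDp/+ fat, against 1495 to 1754 in wild type fat. The 7 macrophage markers were all above 0 in difference (median 0.26), none called, with summed levels of 56.2 to 77.9 in patDp/+ fat, against 55.6 to 58.9 in wild type fat. Their median differences were 0.42, 0.40 and 0.018 on slides 1, 2 and 3. The 4 endothelial markers were all below 0 (median -0.21), none called, with summed levels of 13.6 to 16.96 in patDp/+ fat, against 15.9 to 17.9 in wild type fat. Their median differences were -0.37, -0.33 and 0.12 on slides 1, 2 and 3. All 4 were below their own mean on the array of patDp/+ replicate 2 and 0 on that of wild type replicate 2, the direction of the proteasome genes. The 3 red blood cell markers had 3 below their mean on the array of patDp/+ replicate 2 and 0 on that of wild type replicate 2. All 3 were also below it on the arrays of patDp/+ replicate 1 and wild type replicates 1 and 3. Their median deviation was -0.21 on patDp/+ replicate 2, -0.26 on patDp/+ replicate 1 and -0.41 on wild type replicate 3, so replicate 2 was not the lowest. Their median differences were -0.24, -0.48 and 1.01 on slides 1, 2 and 3. Macrophage markers went the other way from the proteasome genes, with 1 of 7 below their mean on patDp/+ replicate 2 and 7 on wild type replicate 2. So did the 4 mesothelial markers, all above 0 in difference and none called, with 0 and 3. Of the 7 adipocyte markers, 6 and 3 were below. None of the 5 markers of the neighbouring epididymal epithelium passed the filter on dim probes. Of 4 testis germ cell markers 3 passed it, all below 0 in difference and none called. Of 3 skeletal muscle markers only Acta1 passed. It was called higher in patDp/+ fat (1.29, limma unadjusted p = 0.00284), beside 2.37% of all genes. The part of these cell types in the pattern of the proteasome genes was not tested.

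The immunoproteasome genes encode catalytic subunits that interferon induces in place of the standard ones, and all 3 had a difference below 0. Psmb8 had 3.07, 3.04 and 3.004 in patDp/+ fat, against 3.25, 3.29 and 3.12 in wild type fat (-0.18 ± 0.078, limma unadjusted p = 0.0567, adjusted p = 0.856). The groups did not overlap, which held in this direction for 6.84% of all genes. The difference was below 0 on all 3 slides (-0.18, -0.25 and -0.11), beside 16.5% of all genes. Psmb8 was called lower without wild type replicate 3 (-0.23, limma unadjusted p = 0.0416). It was also called in a limma fit whose variance follows the level (-0.18, limma unadjusted p = 0.03). It was not called under the other 14 alternatives, where the difference ran from -0.25 with normexp to -0.11 in the deposited table (limma unadjusted p = 0.136), with -0.17 under quantile normalization (limma unadjusted p = 0.0824) and median scaling (limma unadjusted p = 0.102). Psmb9 had 2.82, 2.79 and 2.80 in patDp/+ fat, against 2.97, 2.92 and 2.76 in wild type fat (-0.079 ± 0.082). Psmb10 had 4.63, 4.59 and 4.50 in patDp/+ fat, against 4.73, 4.66 and 4.51 in wild type fat (-0.056 ± 0.088), and both overlapped between groups.

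**Figure D3:**
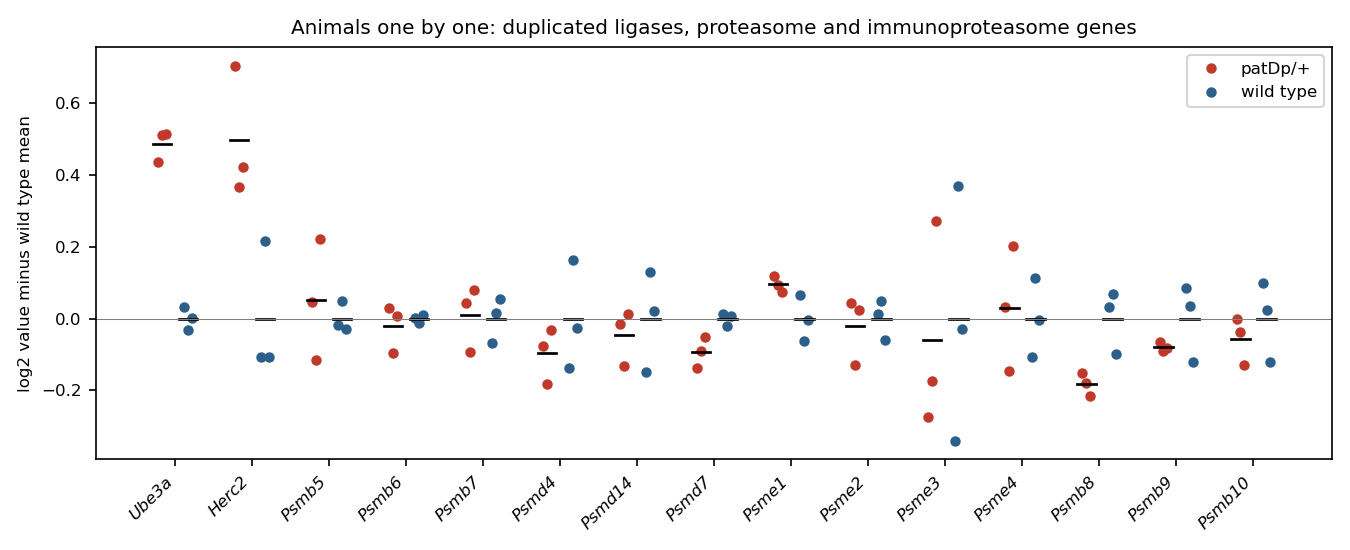
Log2 value of each animal minus the wild type mean for the duplicated ligases, the catalytic and receptor subunits of the proteasome, Psmd7, the activators and the immunoproteasome genes, with patDp/+ animals (red) left of wild type animals (blue) and black lines at the group means. Ube3a and Herc2 lie above the wild type values, Psmb8 lies below them, and the proteasome genes other than Psmd7 and Psme1 overlap.

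Among 15 interferon-induced genes, 13 had a difference below 0 and 2 above, and none was called (median -0.086). Ifit1, an antiviral protein, had -2.02, -1.96 and -2.12 in patDp/+ fat, against -1.41, -1.65 and -1.98 in wild type fat (-0.35 ± 0.15, limma unadjusted p = 0.0592). Irgm1, an interferon-induced GTPase, had 1.34, 1.20 and 1.28 in patDp/+ fat, against 1.55, 1.62 and 1.34 in wild type fat (-0.23 ± 0.098, limma unadjusted p = 0.0598). Both overlapped between groups. Lymphocyte markers, whose cells carry immunoproteasomes, went both ways. Of 5 T cell markers, 2 were called higher, Cd8a (1.34) and Cd3d (0.44), beside 2.37% of all genes. Cd8a was dim, with group means of -3.45 in patDp/+ fat and -4.79 in wild type fat. Cd3e, Cd3g and Cd4 were dim as well. Of 4 B cell markers, 1 was called lower, Cd79b (-0.76), beside 3.4% of all genes. Summed levels were 0.643 to 0.783 in patDp/+ fat, against 0.472 to 0.560 in wild type fat, for the T cell markers, and 0.655 to 1.54 in patDp/+ fat, against 1.42 to 2.02 in wild type fat, for the B cell markers. The part of these cells in the values of Psmb8 was not tested.

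Genes of the proteasome and its partners that carry other names, among them Adrm1, Sem1 and Pomp, gave no call either. The structural classes above hold only genes taken by name. Of 11 tested partners, 4 had a difference above 0 and 7 below (median -0.052). Ecpas, an adaptor that holds core and cap together, had 3.24, 3.11 and 3.38 in patDp/+ fat, against 3.38, 3.41 and 3.41 in wild type fat (-0.15 ± 0.091). Zfand2a, a stress-induced cap-binding protein, had 2.28, 2.14 and 2.26 in patDp/+ fat, against 2.08, 2.20 and 2.14 in wild type fat (0.087 ± 0.079). Both overlapped between groups. The 7 genes listed for the NFE2L1 pathway, which senses a lack of proteasome activity, had 1 difference above 0 and 6 below (median -0.066). The 1 above 0 was Nfe2l2 (0.043), which encodes a factor other than NFE2L1. Nfe2l1 itself had 4.67, 4.69 and 4.79 in patDp/+ fat, against 4.78, 4.78 and 4.79 in wild type fat (-0.066 ± 0.071). Ufd1, which with VCP pulls proteins from the endoplasmic reticulum, had 1.92, 1.85 and 1.98 in patDp/+ fat, against 1.999, 1.999 and 2.04 in wild type fat (-0.096 ± 0.072). Ngly1, which removes sugar chains from NFE2L1, had 1.24, 1.296 and 1.52 in patDp/+ fat, against 1.37, 1.55 and 1.504 in wild type fat (-0.12 ± 0.10). The groups overlapped for Nfe2l1 and Ngly1 and did not for Ufd1. Of 12 genes for ubiquitin, its activating enzymes and shuttle proteins, 11 were tested, 4 above 0 and 7 below (median -0.042). The shuttle Ubqln1 had 2.40, 2.20 and 2.51 in patDp/+ fat, against 2.64, 2.56 and 2.42 in wild type fat (-0.17 ± 0.11). Another shuttle, Ubqln4, had -1.29, -1.42 and -1.46 in patDp/+ fat, against -1.33, -1.09 and -1.35 in wild type fat (-0.13 ± 0.10), and both overlapped between groups. No gene of these lists had an unadjusted p under 0.05.

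Several proteasome genes had more than 1 usable probe, which allowed the brightest probe to be set against the others. In 16 genes, 21 further probes passed the same filter on dim spots. None was at an unadjusted p under 0.05, and 19 had the same sign as the brightest probe of their gene, with a median distance of 0.033 between the differences. The farthest was a dim probe of Psmf1 (-0.40 ± 0.41), and another probe of the same gene had 0.06. For Psmg2, which held the highest difference of the 45, the second probe had 0.0047, and for Psmd12 the further probes had -0.19 and -0.011.

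**Figure D4:**
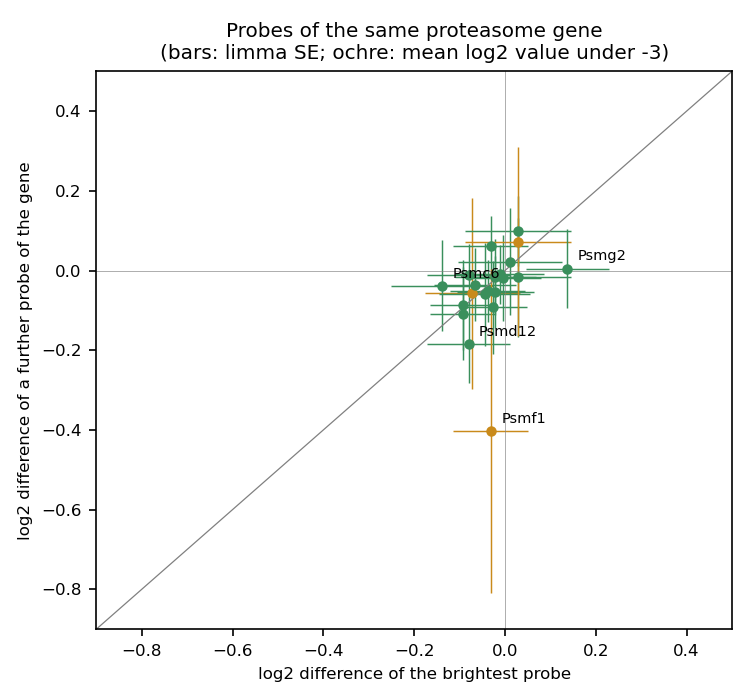
Log2 difference of each further probe of a proteasome gene (vertical axis) against that of the brightest probe of the gene (horizontal axis), with SE bars and the line of equality. Most points lie within 0.1 of the line, and the dim Psmf1 probe (ochre) at -0.40 has the widest bar.

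The 45 genes lie on 16 chromosomes, and none lies in the duplicated stretch. On chromosome 7, Psmd8, Psmc4, Psma1 and Psmd13 lie 33.4, 34.5, 51.8 and 78.5 Mb away from the stretch between the probes of Herc2 and Mkrn3 (chr7:63353727-69562792, mm9).

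Promoter sequence was given by RefSeq (GRCm38.p6) as windows from 250 bases before to 50 after a gene's start, for 38 of the 46 genes in 41 windows. Motifs were searched on both strands, and overlaps between motifs were allowed. The element TGACNNNGC, the core of the antioxidant response element that NFE2L1 binds, was in 14.6% of the proteasome windows, against 13.9% of 14637 windows of genes tested. The ETS element ACTTCCGG was in 24.4% (10 windows of 9 genes), against 7.01% of windows of genes tested. CCAAT was in 34.1% against 37.2%, GGGCGG in 56.1% against 58.4%, the palindromic element of nuclear respiratory factor 1, a factor other than NFE2L1, in 4.88% against 1.74%, and TGACTCAGC in 0% against 0.43%. The bases G and C made up 58.7% of the proteasome windows, against 59.7% in windows of genes tested. The median difference was -0.031 for the 9 tested genes with the ETS letters and -0.029 for the 28 without. Matches are descriptions of letters, not of binding.

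The following windows hold such letters in capitals, 1 example of the NFE2L1 core in a catalytic gene and 2 of the ETS element in a base and an activator gene. Psmb5 (chr14:54617946-54618245, minus strand) has its match from position -47, Psmc1 (chr12:100109952-100110251, plus strand) from position -29, and Psme3 (chr11:101315963-101316262, plus strand) from position 1, counted from the start base as 0.
Psmb5: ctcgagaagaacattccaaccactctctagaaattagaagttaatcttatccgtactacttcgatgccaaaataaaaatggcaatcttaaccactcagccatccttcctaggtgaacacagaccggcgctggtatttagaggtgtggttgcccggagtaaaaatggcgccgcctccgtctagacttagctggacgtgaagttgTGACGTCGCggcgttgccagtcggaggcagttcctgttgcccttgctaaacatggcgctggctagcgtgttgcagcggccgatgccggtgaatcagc
Psmc1: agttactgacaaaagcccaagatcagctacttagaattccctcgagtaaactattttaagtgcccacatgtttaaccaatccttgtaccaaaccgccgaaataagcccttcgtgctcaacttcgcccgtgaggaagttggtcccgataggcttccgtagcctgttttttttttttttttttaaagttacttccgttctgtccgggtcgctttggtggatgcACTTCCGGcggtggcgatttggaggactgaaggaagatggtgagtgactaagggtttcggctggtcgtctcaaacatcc
Psme3: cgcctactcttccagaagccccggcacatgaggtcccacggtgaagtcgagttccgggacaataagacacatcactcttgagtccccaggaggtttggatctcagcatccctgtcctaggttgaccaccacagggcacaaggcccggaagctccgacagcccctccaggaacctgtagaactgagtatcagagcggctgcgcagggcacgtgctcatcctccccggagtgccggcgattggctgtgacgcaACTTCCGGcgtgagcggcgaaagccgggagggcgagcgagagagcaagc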

How the data were processed

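Total RNA of epididymal fat was measured on one-colour Agilent arrays, 1 per animal, in 3 patDp/+ and 3 wild type mice grouped by sample title. The source name of every sample reads wild type and was not used. The design text speaks of separate mice, so a p-value reflects how animals of a group differ. Per the file headers, Feature Extraction 9.5.1.1 gave each spot a processed intensity, background-subtracted and detrended within the array and not scaled between arrays, and also its mean and local background intensity. Agilent Feature Extraction 9.5 and limma 3.18.2 are listed, without a role, in the submitters' processing notes. A second file deposited by the authors holds log2 values with near-identical medians (7.58), with a background correction not given in the sources used here. Each column matched its own array (r 0.857 to 0.932 on deviations from probe means, against at most 0.141 for another array), and it served as an alternative.

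Control and outlier spots were left out, replicate spots were averaged, and log2 processed intensity was centred on each array's 75th percentile. Probes called well above background on 3 or more arrays were kept (27986 of 41174), 1 per gene, the brightest. Gene names are those in the scanner files, brought up to date by accession for 27050 probes. limma 3.58.1 in R 4.3.3 (lmFit, eBayes, two-sided, Benjamini-Hochberg) was fitted to all 19203 genes without covariates and was tested on simulated data. Of 43379 spots other than controls, 27667 to 31275 were well above background, and arrays correlated at 0.988 or more. The number of arrays limits the precision.

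Per-array values are given for the 3 smallest p in each ring, base, lid and chaperone class, the activators, the inhibitor, the catalytic subunits, Psmd4, Psmd14, the duplicated ligases, the immunoproteasome and the 2 smallest p of each further list. Psma8, Nfe2l1, Lep, Acta1, Cd8a, Cd3d and Cd79b were named after their values were seen. The members and lists were chosen with earlier results of these data known. Same-numbered animals deviated with correlations of 0.10, -0.09 and -0.04, which cannot exclude a pairing by number. Same-numbered animals share slides, and the main fit does not pair them. Alternatives were other scalings, normexp with an offset of 50, the deposited table, other filters, the mean of probes, slide and replicate blocks, another variance model and leaving out each array. Counts of genes below 0 under these were added after seeing the data.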

Additional observations from a re-analysis of the deposited data

How the results depend on the processing

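No gene passed the adjusted threshold and no proteasome gene was called higher under any of the 16 alternatives. With normexp background correction, 2 proteasome genes were called lower (Psmd11 and Psmg1) and the medians fell to -0.13 over the 45 genes, -0.14 in the 20S core, -0.15 in the 19S base, -0.14 in the 19S lid and -0.11 in the activators. Psma8 rose to 0.50, the highest of the 45 under that setting. All genes had a median of 0.074 there, and the cause was not tested. Leaving out each animal gave 0 to 1 proteasome genes called lower, the 1 being Psmg1 without patDp/+ replicate 3. It moved the median of the 45 genes between -0.052 (without wild type replicate 1) and 0.013 (without wild type replicate 2). The number of the 45 genes below 0 was 21 without patDp/+ replicate 2, 19 without wild type replicate 2 and 30 to 39 otherwise. With the replicate block, which is also the slide block, 0 proteasome genes were called and the median was -0.026. Across 23 named proteasome genes, 347 of 368 values kept their sign and their side of the threshold, 18 changed sign while uncalled in both settings, 3 became called and 0 reversed. For these genes the slide block, the replicate block, the other variance model and the other filters left the differences unchanged. Their values kept the sign by construction, and the slide and replicate blocks are the same fit counted under both names. The count of 347 therefore overstates how far the signs were tested. For most of the genes the interval of the main setting stayed within 1.5-fold, and that interval does not cover a change of background correction.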
